A study of Arabidopsis thaliana with 24 samples.

Results

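Expanding leaves of well-watered Col-0 plants were compared with emerging leaves of the same accession under the same water supply. Col-0 is the common reference accession of Arabidopsis thaliana and carries no added allele or transgene here. The expanding leaves had reached 50% of full expansion at 14 to 15 days after emergence and are labelled as tissue past differentiation, and the emerging leaves were 1 day old and are labelled as proliferating tissue. The comparison uses 6 of the 24 libraries of the series, 3 per leaf age, which were chosen by their labels. Each library pools 10 plants that were kept between 65 and 100% of the water content of the medium, in an 8 h day at 23 °C and nights at 18 °C. The remaining libraries come from plants held at 30% water content and from gtl1-4, in which the gene of the trihelix factor GTL1 is knocked out. In the well-watered part of that line, GTL1 had 38.4, 46.7 and 37.9 counts per 1000000 nuclear counts in expanding leaves and 14.1, 14.5 and 19.5 in emerging leaves, below every Col-0 library of the same age and water supply. The title of the series concerns how water deficit represses GTL1, and the synthesis of polyamines and anthocyanin, and the labels do not state a question for leaf age itself.

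A young Arabidopsis leaf first grows by cell division throughout the blade. Division then stops from the tip towards the base, and cells enlarge while many go on copying their DNA in endocycles. During that transition plastids become chloroplasts, stomata and trichomes are completed, the cuticle is laid down, and the leaf changes from importing sugar through the phloem to exporting it.

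Values are given as counts per 1000000 nuclear counts (CPM) of each library, for replicates 1, 2 and 3 in that order. A log2 difference is the mean of log2(CPM + 1) in expanding leaves minus that in emerging leaves, with its standard error from limma. A gene is called higher or lower where its Benjamini-Hochberg adjusted p is under 0.05 and its difference is at least 1 on the log2 scale, which is 2-fold. This scale understates the change of low genes, and values are not divided by gene length, so levels are not compared between genes. Chloroplast genes took 68.3 to 70.5% of the counts in expanding leaves and 20.09 to 22.0% in emerging leaves. The chloroplast gene psbA alone took 47.7 to 56.6% of all counts in expanding leaves and 5.41 to 6.61% in emerging leaves. The depth left for nuclear genes was 5.40 to 7.78 M counts in expanding leaves and 11.4 to 19.9 M counts in emerging leaves (M, 1000000). Correlations between libraries, across 18258 genes, were 0.955 to 0.974 among expanding leaves, 0.989 to 0.991 among emerging leaves and 0.736 to 0.761 between the leaf ages. The leaf ages were deposited as separate tables, so anything else that differed between the tables cannot be told apart from leaf age. Harvest time of day is not in the labels. As whole leaves were sampled, fewer cells of a type and less RNA per cell cannot be told apart.

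Marker genes matched leaf tissue at both ages. Of 7 shoot meristem genes, STM, WUS, CLV3 and KNAT1 were listed at 0 in all 6 libraries, KNAT2 and KNAT6 did not pass the filter, and CLV1 had 58.4, 56.7 and 64.0 CPM in expanding leaves, against 40.9, 54.5 and 53.1 CPM in emerging leaves, and was not called. None of 6 root or 6 flower markers reached the level needed for testing. The 5 phloem markers summed to 446 to 540 CPM in expanding leaves, against 54.0 to 56.2 CPM in emerging leaves. The 5 xylem markers summed to 18.5 to 34.2 CPM in expanding leaves, against 24.6 to 31.1 CPM in emerging leaves. The 4 epidermis markers summed to 406 to 441 CPM in expanding leaves, against 1171 to 1197 CPM in emerging leaves. One of them, PDF1, had a mean of 0.185 CPM in expanding leaves and 384 CPM in emerging leaves. The median log2 difference of the 4 was -0.96. By gene, 2 were called lower, or 1 under median-of-ratios scaling and 1 under quantile normalization. Phloem markers were thus higher and epidermis markers lower in every expanding-leaf library, and their part in the gene differences below was not tested.

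Of 18258 nuclear genes tested, 2513 (13.8%) were higher and 4718 (25.8%) were lower in expanding leaves, 39.6% in all. By adjusted p alone, 4135 genes (22.6%) were higher and 8044 (44.1%) lower, and the libraries of the leaf ages did not overlap for 71.7% of genes. The median log2 difference of all genes was -0.37. This balance rests on the scaling: under median-of-ratios scaling 3322 genes were higher and 3378 lower, and under quantile normalization 3334 and 3297, with the median of all genes moved up by 0.30 and 0.31. Higher genes made up 34.8% of the calls with the values as used here and 49.6 and 50.3% under these scalings. Differences of at least 4-fold were found for 917 higher and 1437 lower genes, and of at least 16-fold for 132 and 171.

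**Figure D1:**
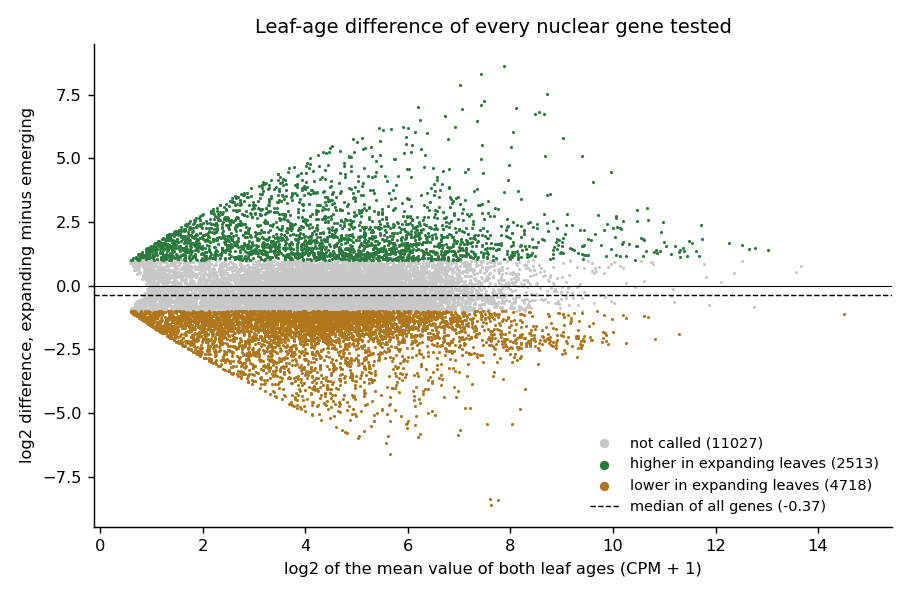
Log2 difference, expanding minus emerging leaves, of each of the 18258 nuclear genes tested, against the log2 mean value of both leaf ages (CPM + 1). Green points are the 2513 genes called higher and brown points the 4718 called lower in expanding leaves; the dashed line is the median of all genes, at -0.37.

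Glucosinolate genes led the rises. Among the 10 largest rises with a mean of at least 20 CPM were CYP79F1, BCAT4, MAM1 and IMD1, all of the aliphatic glucosinolate pathway described below, and XTH31, a xyloglucan-modifying wall enzyme. FSD1, a plastid iron superoxide dismutase, had 939, 746 and 811 CPM in expanding leaves, against 7.70, 2.11 and 2.28 CPM in emerging leaves, a log2 difference of 7.54 ± 0.33 (SE), adjusted p = 5.89e-08. AK3, an aspartate kinase, had 298, 259 and 212 CPM in expanding leaves, against 0.0621, 0.151 and 0 CPM in emerging leaves (7.90 ± 0.18 (SE), adjusted p = 2.57e-09). Both genes were low in emerging leaves and high in all 3 expanding-leaf libraries. The other leading rises were AT2G32870, annotated as a TRAF-like protein (7.01), AT2G25450, annotated as a 2-oxoglutarate-dependent oxygenase (6.96), and the uncharacterised AT2G25510 (6.81).

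DCR, an acyltransferase of cutin synthesis, had 0.514, 0.370 and 0 CPM in expanding leaves, against 423, 469.7 and 401 CPM in emerging leaves (-8.40 ± 0.18 (SE), adjusted p = 1.94e-09). PDF1, an epidermal marker gene, had 0, 0.556 and 0 CPM in expanding leaves, against 411, 373 and 369.7 CPM in emerging leaves (-8.38 ± 0.19 (SE), adjusted p = 2.88e-09). Expanding-leaf libraries thus held at most a few counts of either gene, and no library of one age came near those of the other. AT2G33850, annotated as E6-like, was listed at 0 in every expanding-leaf library and had 361, 455 and 360.4 CPM in emerging leaves. With the limit of 3 counts over the group, which is 0.146 CPM in expanding leaves, it was at least 2690-fold lower there. The lipase-like AT5G33370 and the lipid transfer-like AT1G62500 were also listed at 0 there and were at least 677-fold and 433-fold lower. The lipid transfer protein gene LTP6 fell, as did PRP2, PME5 and GER3, annotated as proline-rich, pectin lyase-like and germin proteins, and the uncharacterised AT5G57123, with log2 differences from -6.17 to -5.89.

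Genes of DNA replication were lower in expanding leaves almost without exception. Of 31 tested, 30 were called lower and none higher, against a background of 25.8% lower among all genes, and the median was -3.20 where that of all genes was -0.37. Only PSF3, a subunit of the GINS replication complex, was not called, at 8.44, 4.87 and 4.31 CPM in expanding leaves, against 11.2, 11.1 and 13.0 CPM in emerging leaves (-0.94 ± 0.25 (SE), adjusted p = 0.00863). MCM2, a subunit of the helicase that opens DNA at replication origins, is shown with its promoter below because it holds as many matches to the E2F core as any of these genes. E2F factors bind that core and switch on S-phase genes once cyclin D kinases inactivate the retinoblastoma protein. The same is done for CYCB1;2, a B-type cyclin that drives mitosis, and the core of the MSA element, which MYB3R factors bind in genes of G2 and M phase. Each window holds the 250 bases before the annotated gene start, read 5′ to 3′ on the strand of the gene from the RefSeq annotation of TAIR10.1, with matches on either strand to the motif each gene is shown for in capitals. MCM2 lies at chr1:16969964-16970213 on the plus strand and CYCB1;2 at chr5:1861704-1861953 on the minus strand, and neither window overlaps another annotated gene.
MCM2: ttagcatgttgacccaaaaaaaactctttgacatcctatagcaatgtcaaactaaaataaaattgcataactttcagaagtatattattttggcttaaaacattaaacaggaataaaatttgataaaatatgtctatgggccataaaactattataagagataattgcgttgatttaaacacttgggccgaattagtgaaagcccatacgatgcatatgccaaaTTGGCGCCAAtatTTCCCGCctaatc
CYCB1;2: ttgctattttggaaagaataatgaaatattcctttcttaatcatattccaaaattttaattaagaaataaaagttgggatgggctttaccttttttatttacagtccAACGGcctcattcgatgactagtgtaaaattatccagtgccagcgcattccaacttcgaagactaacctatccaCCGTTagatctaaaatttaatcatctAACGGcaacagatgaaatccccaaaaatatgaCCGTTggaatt
In MCM2 the 3 matches to TTCCCGC or TTGGCGC start 26, 23 and 13 bases before the gene start, and the match on each strand shares bases with the other in TTGGCGCCAA. CYCB1;2 holds 4 matches to AACGG, 143, 69, 43 and 11 bases before the start. An E2F core was present in 15 of 31 replication genes, 48.4%, and in 1.94% of all 18029 windows of tested genes. An MSA core was present in 22 of 40 mitosis genes, 55.0%, and in 22.2% of all windows. A match is a description of letters and not of a bound site.

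The values of these genes separate the leaf ages widely. MCM2 had 18.9, 17.6 and 7.95 CPM in expanding leaves, against 187, 179 and 194 CPM in emerging leaves (-3.65 ± 0.26 (SE), adjusted p = 1.21e-06). PCNA1, the sliding clamp of the replication fork, had 6.94, 5.74 and 2.83 CPM in expanding leaves, against 141, 127 and 127 CPM in emerging leaves (-4.49 ± 0.24 (SE), adjusted p = 1.97e-07). TSO2, a subunit of ribonucleotide reductase, had 27.2, 37.8 and 33.8 CPM in expanding leaves, against 431, 435 and 419 CPM in emerging leaves (-3.67 ± 0.12 (SE), adjusted p = 1.24e-08). Each of the 3 was lower in every expanding-leaf library than in any emerging-leaf library, yet none was at 0. MCM5 and MCM7 behaved alike, with log2 differences of -3.53 and -3.99.

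All 40 genes of mitosis and cytokinesis were lower, with a median of -4.002, and so were all 23 core histone genes, with a median of -3.35. CYCB1;1 had 0.386, 0.370 and 0.539 CPM in expanding leaves, against 34.0, 31.4 and 33.1 CPM in emerging leaves (-4.56 ± 0.21 (SE), adjusted p = 7.82e-08). CYCB1;2 had 1.93, 0.926 and 3.0997 CPM in expanding leaves, against 102, 89.9 and 88.3 CPM in emerging leaves (-5.05 ± 0.26 (SE), adjusted p = 1.44e-07). For both cyclins the lowest emerging-leaf library lay far above the highest expanding-leaf library. KN, the syntaxin of the cell plate, had 4.63, 1.11 and 0.404 CPM in expanding leaves, against 82.1, 85.9 and 74.4 CPM in emerging leaves (-5.00 ± 0.42 (SE), adjusted p = 3.96e-06). Here replicate 1 of the expanding leaves lay above the other two, as it did for the mitotic kinase CDKB1;1, at 2.06, 0.185 and 0.539 CPM in expanding leaves, against 44.9, 38.5 and 36.6 CPM in emerging leaves (-4.53 ± 0.33 (SE), adjusted p = 1.63e-06). The largest fall of the list was that of HIK, a kinesin of cytokinesis (-5.47 ± 0.24 (SE), adjusted p = 6.17e-08), followed by CDC20.1, an activator of the anaphase-promoting complex (-5.43 ± 0.20 (SE), adjusted p = 2.50e-08). Among histones, the H3 gene AT3G27360 had 12.2, 3.56 and 3.47 CPM in expanding leaves, against 158, 137 and 127 CPM in emerging leaves (-4.45 ± 0.36 (SE), adjusted p = 3.02e-06) and HTB2, an H2B gene, fell by 4.04 on the log2 scale. Core histone genes include near-identical copies, so the split of reads among them is uncertain. Taken as a sum, the 94 genes of replication, mitosis and histones held 0.0957 ± 0.0118% of nuclear counts in expanding leaves and 0.916 ± 0.0285% in emerging leaves (SD, n = 3 each).

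The cyclin D, RBR and E2F genes that govern entry into the cell cycle moved the same way but less uniformly. Of 19 tested, 13 were lower and none higher (median -1.98). CYCD3;1, a cyclin D that holds leaf cells in division, had 8.10, 4.82 and 4.31 CPM in expanding leaves, against 129, 136 and 132 CPM in emerging leaves (-4.35 ± 0.19 (SE), adjusted p = 6.44e-08). CYCD6;1 (-3.51) and DEL1, an atypical E2F that delays endocycles (-3.97), also fell. CDKA;1, the kinase used throughout the cycle, had 69.1, 66.3 and 59.3 CPM in expanding leaves, against 78.8, 75.7 and 67.5 CPM in emerging leaves (-0.19 ± 0.10 (SE), adjusted p = 0.138), and its libraries overlapped. Its sign turned under median-of-ratios scaling, to 0.14.

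Endocycle genes and CDK inhibitors were split. Of 18 tested, 9 were lower and 3 higher (median -1.02), where 25.8% of all tested genes were lower and 13.8% higher. Under median-of-ratios scaling 7 were lower and 3 higher (median -0.74), and under quantile normalization 6 and 3 (median -0.69). CCS52A1, an activator of the anaphase-promoting complex that promotes endocycles, had 9.77, 11.9 and 19.4 CPM in expanding leaves, against 14.8, 11.6 and 14.3 CPM in emerging leaves (-0.03 ± 0.25 (SE), adjusted p = 0.909), whereas its relative CCS52B, which acts in mitosis, had 2.57, 2.78 and 2.83 CPM in expanding leaves, against 47.5, 48.7 and 54.2 CPM in emerging leaves (-3.78 ± 0.17 (SE), adjusted p = 6.09e-08). The first did not separate the leaf ages and the second did in every library. The inhibitor SMR1 was higher, at 30.2, 19.6 and 34.8 CPM in expanding leaves, against 10.2, 10.05 and 6.58 CPM in emerging leaves (1.54 ± 0.24 (SE), adjusted p = 0.000343), as were KRP1 (1.02) and KRP6 (1.09). Without replicate 1 of the expanding leaves KRP1 was at 0.82 and KRP6 at 0.98, both short of a call, as was KRP1 without replicate 2 or 3 of the emerging leaves. Lower were the inhibitors KRP3 (-3.73) and SIM, which acts in trichome endocycles (-1.22 ± 0.25 (SE), adjusted p = 0.00183), and the kinase WEE1 (-3.03).

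**Figure D2:**
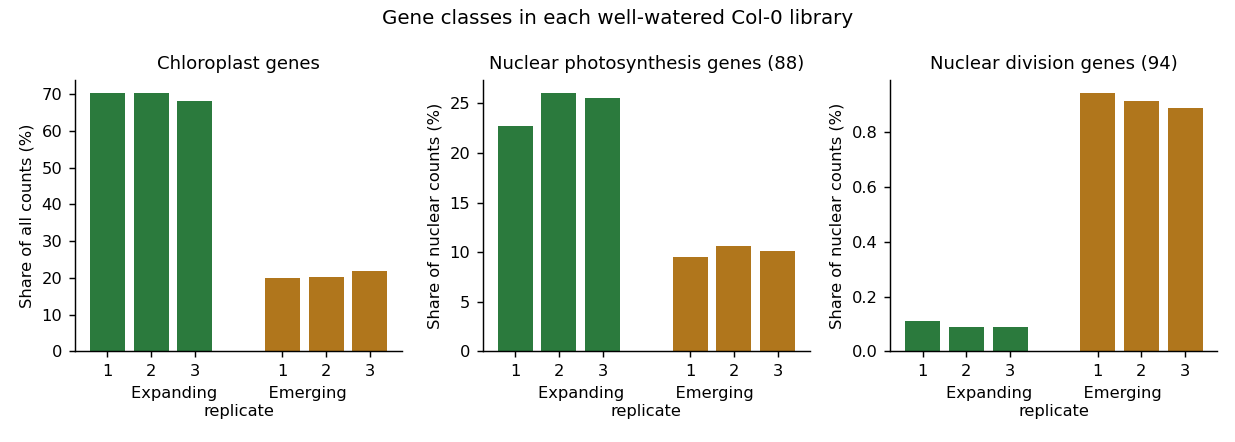
Share of counts in each well-watered Col-0 library, for expanding leaves (green) and emerging leaves (brown), replicates 1 to 3: chloroplast genes as a share of all counts, 88 nuclear photosynthesis genes and 94 division genes as shares of nuclear counts. Chloroplast and photosynthesis shares are higher in every expanding-leaf library (22.7 to 26.1% against 9.54 to 10.6% for photosynthesis), and division shares are lower in each. The chloroplast gene psbA alone holds 47.7 to 56.6% of all counts in expanding leaves and 5.41 to 6.61% in emerging leaves.

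Ribosome genes were lower in expanding leaves as a block. All 23 cytosolic ribosomal protein genes were called lower, within a narrow range of log2 differences from -2.63 to -1.53 (median -2.19). RPS6A had 167, 152 and 128 CPM in expanding leaves, against 964, 919.7 and 890.2 CPM in emerging leaves (-2.63 ± 0.10 (SE), adjusted p = 3.34e-08), and PFL, which encodes ribosomal protein S18, fell by 2.53. All 9 genes of the nucleolus and of ribosome assembly were lower too (median -2.10). NOP56, a core protein of the snoRNA particles that modify ribosomal RNA, had 53.6, 45.9 and 40.0 CPM in expanding leaves, against 374, 380.1 and 381 CPM in emerging leaves (-3.01 ± 0.11 (SE), adjusted p = 2.24e-08). The fibrillarin gene FIB2 had 10.4, 9.82 and 0.809 CPM in expanding leaves, against 108, 85.1 and 103 CPM in emerging leaves (-4.03 ± 0.58 (SE), adjusted p = 0.000182), with replicate 3 of the expanding leaves far below the other two. Summed over the list, ribosomal protein genes had 3289 to 3822 CPM in expanding leaves, against 16283 to 16798 CPM in emerging leaves.

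Most of the leaf growth regulators tested were lower in expanding leaves. Of 22 tested, 16 were lower and none higher (median -2.03, or -2.21 with the 5 genes that had no count in expanding leaves put at their limit). AN3, a coactivator that works with GRF factors to keep leaf cells dividing, was listed at 0 in every expanding-leaf library and had 16.8, 11.6 and 12.6 CPM in emerging leaves, at least 93.7-fold lower. GRF5 (AT3G13960) was likewise listed at 0, against 27.3, 22.5 and 26.4 CPM, at least 174-fold lower. Neither gene gave a count in any expanding-leaf library. GRF4 had 5.40, 5.19 and 1.62 CPM in expanding leaves, against 53.5, 55.2 and 52.8 CPM in emerging leaves (-3.54 ± 0.31 (SE), adjusted p = 5.67e-06). ANT, an AP2-type factor that sets organ size, had 15.9, 9.26 and 9.30 CPM in expanding leaves, against 138, 132 and 123 CPM in emerging leaves (-3.44 ± 0.19 (SE), adjusted p = 2.32e-07). DA1, a ubiquitin receptor that limits growth, did not separate the ages, at 14.3, 9.82 and 14.3 CPM in expanding leaves, against 10.2, 12.2 and 12.4 CPM in emerging leaves (0.12 ± 0.20 (SE), adjusted p = 0.626).

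The CIN-type TCP factors, which promote the arrest of division, included no called rise. Of 8 tested, 4 were lower and none higher, and the count of lower genes was 2 under either other scaling. TCP4 had 18.8, 15.6 and 22.4 CPM in expanding leaves, against 52.7, 55.2 and 50.9 CPM in emerging leaves (-1.45 ± 0.14 (SE), adjusted p = 1.38e-05) and TCP17 fell by 2.25. TCP2 had 184, 155 and 179 CPM in expanding leaves, against 148, 145 and 129 CPM in emerging leaves, a difference below 2-fold (0.30 ± 0.10 (SE), adjusted p = 0.0215). Genes of leaf polarity and margins fell in 8 of 17 cases and rose in 1. AS2 and JAG, which shape the young blade, were listed at 0 in expanding leaves and were at least 68.3-fold and 38.6-fold lower. AS1 (-2.08) and WOX1 (-3.33) fell as well. BOP2, which acts at the leaf base and petiole, went the other way, at 10.4, 5.37 and 14.02 CPM in expanding leaves, against 0.807, 0.754 and 0.351 CPM in emerging leaves (2.66 ± 0.34 (SE), adjusted p = 7.61e-05). Among SPL and AP2-like genes of phase change, 3 of 11 were lower and 2 higher, against 13.8% of all tested genes higher and 25.8% lower. Under median-of-ratios scaling 2 were lower and 3 higher, and under quantile normalization 1 was lower and 3 higher. SPL15 fell by 2.68, and SNZ (1.39 ± 0.14 (SE), adjusted p = 1.38e-05) and TOE1 (1.22 ± 0.11 (SE), adjusted p = 7.45e-06) rose.

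GTL1, the gene the series is about, limits endocycles in trichomes and represses the stomatal protease gene SDD1. It had 129.9, 115 and 147 CPM in expanding leaves, against 70.4, 68.3 and 62.6 CPM in emerging leaves. Every expanding-leaf library lay above every emerging-leaf library, with a log2 difference of 0.95 ± 0.11 (SE), adjusted p = 3.57e-05, short of the 2-fold limit for a call. It was called under median-of-ratios scaling (1.28), under quantile normalization (1.11) and without replicate 2 of the expanding leaves (1.03). Its means were 131 ± 16.03 CPM in expanding leaves and 67.1 ± 4.05 CPM in emerging leaves (SD, n = 3 each). SDD1 had 0.257, 0.185 and 0 CPM in expanding leaves, against 18.4, 22.3 and 26.5 CPM in emerging leaves (-4.34 ± 0.25 (SE), adjusted p = 3.06e-07). In well-watered gtl1-4 its difference was -3.56, a change of 0.78 ± 0.32 (SE) that did not pass (adjusted p = 0.354, limma). SDD1 is also a member of the stomatal lineage list below, and a part of GTL1 in its fall was not tested.

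Most genes of the stomatal lineage were lower in expanding leaves. Of 20 tested, 15 were lower and 1 higher (median -1.96). SPCH, the bHLH factor that starts the lineage, was listed at 0 in expanding leaves and had 27.6, 19.3 and 17.2 CPM in emerging leaves, at least 147-fold lower. MUTE, which ends the stem-like divisions of the lineage, was at 0 against 12.7, 9.35 and 8.08 CPM, at least 69.0-fold lower. These genes were counted in all emerging-leaf libraries and in no expanding-leaf library. The receptor-like protein TMM had 1.16, 1.11 and 0 CPM in expanding leaves, against 71.2, 75.4 and 77.5 CPM in emerging leaves (-5.51 ± 0.29 (SE), adjusted p = 2.04e-07), and POLAR, which marks the asymmetric division, had 0, 0.185 and 0 CPM in expanding leaves, against 28.0, 24.1 and 27.3 CPM in emerging leaves (-4.69 ± 0.23 (SE), adjusted p = 1.09e-07). FAMA, the factor of the last, symmetric division, had 7.58, 3.52 and 7.28 CPM in expanding leaves, against 8.07, 9.70 and 7.72 CPM in emerging leaves (-0.47 ± 0.28 (SE), adjusted p = 0.169) and was not called. MYB88, which stops that division from repeating, was higher, at 17.1, 14.6 and 19.3 CPM in expanding leaves, against 5.84, 4.02 and 6.67 CPM in emerging leaves (1.48 ± 0.23 (SE), adjusted p = 0.00026).

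Genes of mature guard cells gave no called fall with the values as used here. Of 14 tested, 5 were higher and none lower, against a background of 13.8% higher. Under median-of-ratios scaling 6 were higher and 0 lower, and under quantile normalization 7 were higher and 1 lower. The inward potassium channel gene KAT1 had 29.8, 20.001 and 32.6 CPM in expanding leaves, against 5.28, 9.35 and 7.37 CPM in emerging leaves (1.77 ± 0.25 (SE), adjusted p = 0.000137). CHX20, a cation exchanger of guard cells, had 29.2, 21.9 and 14.2 CPM in expanding leaves, against 1.8005, 2.51 and 2.37 CPM in emerging leaves (2.77 ± 0.28 (SE), adjusted p = 1.44e-05), and the anion channel gene SLAH3 rose by 1.49. The 3 genes separated the leaf ages in every library. TGG1, a myrosinase of guard cells and phloem idioblasts, had 1981, 1814 and 1906 CPM in expanding leaves, against 2305, 2586 and 2802 CPM in emerging leaves, a difference below 2-fold (-0.43 ± 0.10 (SE), adjusted p = 0.00364), and as the most abundant member it set the sum of the list, 1932 to 2119 CPM in expanding leaves and 2354 to 2849 CPM in emerging leaves.

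Trichome genes fell in 10 of 15 cases and rose in none, while under both other scalings 10 fell and 2 rose, GTL1 among them. GL1, the MYB factor that starts trichomes, was listed at 0 in expanding leaves and had 21.9, 19.6 and 16.2 CPM in emerging leaves, at least 132-fold lower. GL2 had 2.83, 1.67 and 6.47 CPM in expanding leaves, against 52.8, 63.2 and 48.1 CPM in emerging leaves (-3.71 ± 0.33 (SE), adjusted p = 6.01e-06), and TTG2, a WRKY factor of trichomes and seed coats, fell by 3.77. The zinc finger gene ZFP8 had 29.9, 36.9 and 24.9 CPM in expanding leaves, against 35.1, 29.5 and 31.6 CPM in emerging leaves (-0.08 ± 0.16 (SE), adjusted p = 0.666), and its libraries overlapped. Its sign changed under both other scalings, to 0.24 and 0.19.

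The cuticle was represented by contrasting genes. Of 14 cutin genes, 9 were lower and 1 higher (median -1.28), and of 15 wax genes 6 were lower and 2 higher, or 3 lower and 4 higher under both other scalings. LACS1, a long-chain acyl-CoA synthetase of wax and cutin, had 11.4, 10.2 and 6.87 CPM in expanding leaves, against 289, 309 and 259 CPM in emerging leaves (-4.79 ± 0.16 (SE), adjusted p = 1.85e-08). CYP86A4, a fatty acid hydroxylase, had 0.129, 0 and 0 CPM in expanding leaves, against 31.3, 35.3 and 32.7 CPM in emerging leaves (-5.03 ± 0.22 (SE), adjusted p = 5.80e-08), while its relative CYP86A2 was higher, at 96.4, 134 and 106 CPM in expanding leaves, against 20.24, 25.1 and 21.6 CPM in emerging leaves (2.27 ± 0.14 (SE), adjusted p = 5.54e-07). The 2 hydroxylases thus stood on opposite sides. HTH, an oxidoreductase of cutin synthesis, fell by 3.402. CER1, of alkane wax synthesis, had 73.9, 119.8 and 95.3 CPM in expanding leaves, against 316, 387 and 381 CPM in emerging leaves (-1.92 ± 0.16 (SE), adjusted p = 3.85e-06). The elongase gene KCS1 (1.52 ± 0.19 (SE), adjusted p = 6.22e-05) and the wax exporter gene ABCG12 (1.26 ± 0.08 (SE), adjusted p = 6.73e-07) rose. LTP1, a lipid transfer protein of the epidermis, fell by 1.17. The epidermal factor ATML1, which maintains that cell layer, had 71.2, 74.1 and 62.9 CPM in expanding leaves, against 146, 154 and 134 CPM in emerging leaves (-1.05 ± 0.10 (SE), adjusted p = 8.67e-06; -0.98 and short of a call without replicate 3 of the expanding leaves), beside the summed epidermis markers given above.

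**Figure D3:**
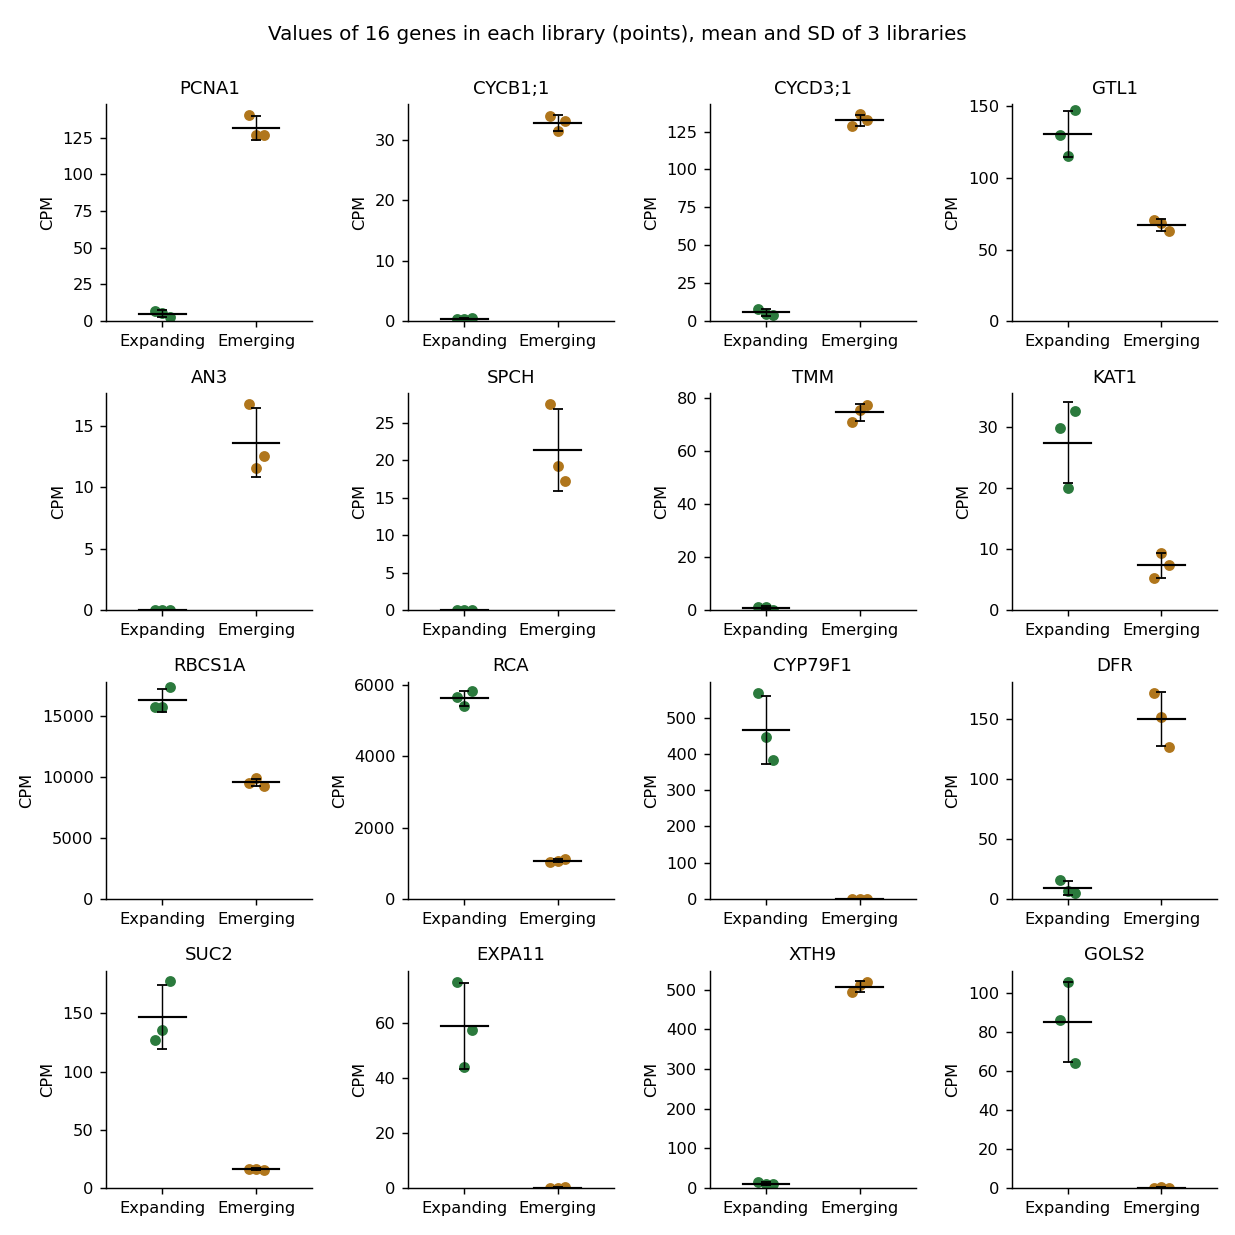
CPM of 16 genes in each library of expanding leaves (green, left) and emerging leaves (brown, right), with the mean and SD of 3 libraries; each panel has its own linear axis from 0. AN3 and SPCH are at 0 in expanding leaves, and CYP79F1, EXPA11 and GOLS2 are near 0 in emerging leaves.

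Nuclear genes of photosynthesis were higher in expanding leaves in each functional class, and none of the 88 tested was called lower. They held 24.8 ± 1.81% of nuclear counts in expanding leaves and 10.097 ± 0.532% in emerging leaves (SD, n = 3 each). Called higher were 16 of 20 antenna genes (median 1.41), 24 of 31 genes of the photosystems and electron transport (median 1.35), 15 of 20 Calvin cycle genes (median 1.603) and 12 of 17 photorespiration genes (median 1.78). Under quantile normalization 6, 13, 11 and 12 of them were called, and medians stayed positive (0.75, 0.78, 1.43 and 1.82). Under median-of-ratios scaling the counts were 17, 29, 19 and 13.

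Promoters of a photosystem and a carbon-fixing member are shown because none of these genes holds more matches to the G-box CACGTG, bound by bZIP and bHLH factors of light signalling, and to the I-box GATAAG, a common element of light-regulated genes. The windows follow the rules given for MCM2. Capitals mark the G-box in PSBQ-2 and the I-box in RBCS2B, and 1 I-box in the PSBQ-2 window and 1 G-box in the RBCS2B window are left in lower case. PSBQ-2, an extrinsic protein of photosystem II, has its window at chr4:2673244-2673493 and RBCS2B, a small subunit of Rubisco, at chr5:15382072-15382321, both on the minus strand.
PSBQ-2: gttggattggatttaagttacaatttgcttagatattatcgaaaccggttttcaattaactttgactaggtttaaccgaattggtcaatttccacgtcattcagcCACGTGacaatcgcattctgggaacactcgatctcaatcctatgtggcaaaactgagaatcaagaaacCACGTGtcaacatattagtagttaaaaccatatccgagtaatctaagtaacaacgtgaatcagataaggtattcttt
RBCS2B: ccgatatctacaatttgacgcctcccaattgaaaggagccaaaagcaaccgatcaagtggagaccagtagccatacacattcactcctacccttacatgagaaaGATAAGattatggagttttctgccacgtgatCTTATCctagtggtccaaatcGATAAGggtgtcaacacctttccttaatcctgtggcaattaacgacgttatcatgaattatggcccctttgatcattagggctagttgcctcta
PSBQ-2 holds 2 G-boxes, 145 and 77 bases before the start, and RBCS2B holds 3 I-boxes, 146, 115 and 94 bases before it. A G-box was present in 14 of 88 photosynthesis genes, 15.9%, and in 7.48% of all windows. An I-box was present in 17 of the 88, 19.3%, and in 12.4% of all windows. PSBQ-2 had 3441, 3569 and 3518 CPM in expanding leaves, against 1183, 1277 and 1124 CPM in emerging leaves (1.56 ± 0.09 (SE), adjusted p = 2.79e-07), and RBCS2B had 3947, 4556 and 4674 CPM in expanding leaves, against 1254, 1384 and 1284 CPM in emerging leaves (1.74 ± 0.10 (SE), adjusted p = 3.05e-07).

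Antenna proteins bind the chlorophyll that collects light. LHCB2.1 had 4368, 6331 and 5330.2 CPM in expanding leaves, against 1378, 1593 and 1524 CPM in emerging leaves (1.82 ± 0.14 (SE), adjusted p = 1.94e-06). LHCB1.4 had 1969, 3089.7 and 2513 CPM in expanding leaves, against 268, 352 and 325 CPM in emerging leaves (2.98 ± 0.16 (SE), adjusted p = 2.07e-07), and LHCB2.3 rose by 2.28. These genes were higher in every expanding-leaf library. LHCB1.1 had 3930.1, 5282 and 4695 CPM in expanding leaves, against 3704, 4415 and 4358 CPM in emerging leaves (0.15 ± 0.13 (SE), adjusted p = 0.335), overlapped between leaf ages, and turned to -0.61 under quantile normalization. LHCB1.3 had 11703, 17796 and 14011 CPM in expanding leaves, against 8714, 10784 and 10195 CPM in emerging leaves (0.54 ± 0.17 (SE), adjusted p = 0.02). Members of the LHCB1 group are near-identical in sequence, so the division of reads among them is uncertain. Among the photosystems, the ATP synthase subunit gene ATPC1 (1.82 ± 0.08 (SE), adjusted p = 8.12e-08) and PSBO2, of the oxygen-evolving complex (1.77 ± 0.13 (SE), adjusted p = 1.36e-06), rose most.

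Carbon fixation genes gave some of the firmest differences. RCA, the activase of Rubisco, had 5647, 5391 and 5808 CPM in expanding leaves, against 1040.0, 1051 and 1124 CPM in emerging leaves (2.39 ± 0.09 (SE), adjusted p = 2.54e-08). CA1, a chloroplast carbonic anhydrase, had 2747, 2866 and 3029 CPM in expanding leaves, against 316, 366 and 348 CPM in emerging leaves (3.07 ± 0.09 (SE), adjusted p = 9.44e-09). PRK, phosphoribulokinase, had 1716, 1864 and 2039.9 CPM in expanding leaves, against 363, 418 and 408 CPM in emerging leaves (2.24 ± 0.09 (SE), adjusted p = 5.03e-08). The spread between replicates of an age was small beside these gaps. CP12-2, a linker protein that switches the cycle off in the dark, rose by 2.99. RBCS1A had 15776, 15738 and 17391 CPM in expanding leaves, against 9552, 9906 and 9299.7 CPM in emerging leaves, below 2-fold (0.76 ± 0.12 (SE), adjusted p = 0.000374), and its reads are shared with the other small-subunit genes. Photorespiration salvages the product of the oxygenase reaction of Rubisco. CAT2 (AT4G35090), the leaf catalase, had 1688, 2059 and 1981 CPM in expanding leaves, against 71.5, 90.4 and 93.3 CPM in emerging leaves (4.48 ± 0.12 (SE), adjusted p = 6.68e-09), the largest rise in that list. GLDP1, of glycine decarboxylase, had 2464, 2719.7 and 3258 CPM in expanding leaves, against 411, 479 and 527 CPM in emerging leaves (2.57 ± 0.13 (SE), adjusted p = 1.14e-07). The plastid glutamine synthetase gene GS2 had 906, 825 and 1033 CPM in expanding leaves, against 594, 697 and 667 CPM in emerging leaves (0.49 ± 0.10 (SE), adjusted p = 0.002) and was not called.

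Chlorophyll and plastid gene expression did not follow photosynthesis as a block. Of 20 tetrapyrrole genes, 3 were higher and 5 lower (median -0.20), near the 13.8% higher and 25.8% lower of all tested genes. Under median-of-ratios scaling 5 were higher and 2 lower with a median of 0.13, and under quantile normalization 3 were higher and 3 lower. HEMA1, which starts the pathway (1.199 ± 0.09 (SE), adjusted p = 1.50e-06), CH1, which makes chlorophyll b (1.297 ± 0.08 (SE), adjusted p = 5.76e-07), and CRD1, a cyclase subunit (1.13 ± 0.10 (SE), adjusted p = 6.72e-06; 0.23 and not called under quantile normalization), rose. PORA, the light-sensitive protochlorophyllide reductase of seedlings, had 0.771, 4.82 and 0.674 CPM in expanding leaves, against 28.1, 45.3 and 33.7 CPM in emerging leaves (-3.80 ± 0.44 (SE), adjusted p = 4.00e-05). PORB, its counterpart in green tissue, had 627, 562 and 673 CPM in expanding leaves, against 664, 667 and 600.3 CPM in emerging leaves (-0.05 ± 0.09 (SE), adjusted p = 0.613). PORA thus separated the leaf ages and PORB did not. GUN5, a subunit of the magnesium chelatase, had a difference of 0.86, below 2-fold.

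Of 22 genes of the machinery that transcribes plastid genes, 10 were lower and 3 higher (median -0.82), and 8 lower and 5 higher under both other scalings. FSD3, a superoxide dismutase of the plastid transcription complex, had 33.9, 30.2 and 30.3 CPM in expanding leaves, against 190.5, 188 and 189.6 CPM in emerging leaves (-2.55 ± 0.09 (SE), adjusted p = 2.04e-08), and its partner FSD2 fell by 3.70, whereas FSD1, above, rose. HMR, another member of that complex, fell by 2.13. The sigma factor SIG5, which directs plastid RNA polymerase under stress and light, rose strongly, at 167, 181 and 156 CPM in expanding leaves, against 14.03, 12.9 and 12.6 CPM in emerging leaves (3.57 ± 0.11 (SE), adjusted p = 1.11e-08). GLK1, a transcription factor for photosynthesis genes, had 271, 389 and 283 CPM in expanding leaves, against 139, 157 and 155 CPM in emerging leaves (1.04 ± 0.13 (SE), adjusted p = 7.44e-05), at 0.88 without replicate 2 of the expanding leaves and 0.99 without replicate 1 of the emerging leaves, short of a call. Of 12 genes of plastid division and protein import, 3 were lower and 1 higher, near the shares of all tested genes. TIC110, a component of the import machinery of the inner envelope (-1.80), and TOC33, an import receptor of the outer envelope (-1.81), fell, and ARC5, which severs dividing chloroplasts, had 211, 224 and 222 CPM in expanding leaves, against 95.6, 97.6 and 98.1 CPM in emerging leaves (1.16 ± 0.08 (SE), adjusted p = 7.25e-07).

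Genes for handling fixed carbon were raised. Of 15 genes of sucrose synthesis, cleavage and transport, 9 were higher and 1 lower (median 1.56). SPS4F, a sucrose phosphate synthase, had 137, 148 and 159 CPM in expanding leaves, against 1.06, 0.754 and 0.176 CPM in emerging leaves (6.52 ± 0.22 (SE), adjusted p = 1.65e-08). SUC2, the sucrose-proton symporter that loads the phloem, had 127, 136 and 178 CPM in expanding leaves, against 16.6, 16.4 and 15.1 CPM in emerging leaves (3.103 ± 0.14 (SE), adjusted p = 6.12e-08). SWEET11, which releases sucrose next to the phloem, had 40.7, 32.4 and 50.5 CPM in expanding leaves, against 0.248, 1.06 and 0.439 CPM in emerging leaves (4.75 ± 0.27 (SE), adjusted p = 2.88e-07). All 3 genes were higher in every expanding-leaf library, and SUC2 is also among the phloem markers that rose together. PP2-A1, a phloem lectin (4.90), and AHA3, a proton pump of companion cells (3.26), are 2 others of these 5 markers. SUS1, a sucrose synthase, had 50.9, 55.0 and 61.5 CPM in expanding leaves, against 4.35, 5.18 and 4.301 CPM in emerging leaves (3.34 ± 0.16 (SE), adjusted p = 9.61e-08). The hexose importer gene STP1 was the member that fell, at 9.51, 13.0 and 9.16 CPM in expanding leaves, against 20.5, 22.0 and 26.1 CPM in emerging leaves (-1.05 ± 0.19 (SE), adjusted p = 0.000708). STP1 was at -0.74 under median-of-ratios scaling and -0.71 under quantile normalization, and at -0.99 without replicate 1 or -0.97 without replicate 3 of the expanding leaves and -0.96 without replicate 3 of the emerging leaves, short of a call in each.

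Called higher were 5 of 12 starch breakdown genes (median 0.81) and 4 of 9 starch synthesis genes (median 0.57), and none was lower. GWD1, the glucan water dikinase that opens starch to attack, had 613, 609 and 638 CPM in expanding leaves, against 114, 113 and 115 CPM in emerging leaves (2.43 ± 0.07 (SE), adjusted p = 1.07e-08). The beta-amylase gene BAM5 had 53.2, 78.3 and 50.00000 CPM in expanding leaves, against 12.1, 10.51 and 26.4 CPM in emerging leaves (1.91 ± 0.30 (SE), adjusted p = 0.000354). APL1, a large subunit of ADP-glucose pyrophosphorylase, rose by 1.14, whereas the small subunit gene ADG1 had 221, 238 and 246 CPM in expanding leaves, against 219, 241 and 233 CPM in emerging leaves (0.02 ± 0.08 (SE), adjusted p = 0.799). Of 13 nitrogen genes, 6 were higher and 1 lower. The nitrate reductase gene NIA2 had 911, 1052 and 774 CPM in expanding leaves, against 139, 167 and 215 CPM in emerging leaves (2.40 ± 0.16 (SE), adjusted p = 8.30e-07), whereas its partner NIA1 had 93.2, 96.1 and 82.9 CPM in expanding leaves, against 144, 179.5 and 193 CPM in emerging leaves (-0.91 ± 0.12 (SE), adjusted p = 9.58e-05). The expanding leaves were above the emerging leaves for NIA2 and below them for NIA1. NRT1.7, which exports nitrate from older leaves into the phloem, rose by 3.46. GLN1;3, a cytosolic glutamine synthetase, fell by 3.03.

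Wall-loosening families changed members. Of 12 alpha-expansins 3 were higher and 5 lower, and of 18 xyloglucan endotransglucosylases 8 were higher and 5 lower. Among all tested genes 13.8% were higher and 25.8% lower. Expansins numbered 3 higher and 3 lower under median-of-ratios scaling, and 3 and 4 under quantile normalization. For the xyloglucan enzymes these counts were 10 and 4, and 11 and 4. EXPA11 had 75.2, 44.1 and 57.4 CPM in expanding leaves, against 0, 0.0503 and 0.176 CPM in emerging leaves (5.77 ± 0.25 (SE), adjusted p = 5.46e-08), and EXPA8 had 74.2, 70.9 and 80.7 CPM in expanding leaves, against 0.869, 0.704 and 0.702 CPM in emerging leaves (5.44 ± 0.18 (SE), adjusted p = 1.51e-08). EXPA10, which is known for leaf growth, went the other way, at 16.8, 15.4 and 10.6 CPM in expanding leaves, against 74.9, 89.1 and 80.1 CPM in emerging leaves (-2.45 ± 0.17 (SE), adjusted p = 1.02e-06). EXPA1 had 248, 269.8 and 274 CPM in expanding leaves, against 60.7, 65.8 and 71.4 CPM in emerging leaves (1.99 ± 0.09 (SE), adjusted p = 7.68e-08). XTH31 had 276, 257 and 259.8 CPM in expanding leaves, against 1.304, 1.41 and 0.878 CPM in emerging leaves (6.92 ± 0.14 (SE), adjusted p = 1.94e-09), and XTH7 rose by 4.66. XTH9 had 14.7, 9.07 and 9.03 CPM in expanding leaves, against 494, 511 and 519 CPM in emerging leaves (-5.45 ± 0.16 (SE), adjusted p = 1.11e-08). Members with large differences in either direction thus stood side by side, and the summed lists differed less. Alpha-expansins summed to 556 to 600 CPM in expanding leaves and 436 to 489 CPM in emerging leaves, and the xyloglucan enzymes to 979 to 1095 CPM and 876 to 937 CPM.

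Of 10 genes of primary wall cellulose, 2 were called higher and 8 passed by adjusted p alone, and 7 were called under median-of-ratios scaling. CESA2, a subunit of cellulose synthase, had 417, 486 and 401 CPM in expanding leaves, against 137, 149 and 153 CPM in emerging leaves (1.56 ± 0.09 (SE), adjusted p = 4.23e-07), and COB, which orients cellulose deposition, rose by 1.32. CESA1 had a difference of 0.88, below 2-fold. None of 9 secondary wall genes was called by limma, and none passed by adjusted p. CESA4, of xylem walls, had 10.2, 8.33 and 11.6 CPM in expanding leaves, against 10.2, 8.65 and 7.99 CPM in emerging leaves (0.14 ± 0.21 (SE), adjusted p = 0.553), and the xylem marker XCP2 had a difference of -0.22.

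Of 17 aquaporins, the water channels of plasma membrane and vacuole, 7 were higher and 5 lower. Among all tested genes 13.8% were higher and 25.8% lower. Lower aquaporins numbered 3 under both other scalings, and higher ones 8 under median-of-ratios scaling and 7 under quantile normalization. TIP2;2 had 183, 236 and 198 CPM in expanding leaves, against 16.1, 21.7 and 15.5 CPM in emerging leaves (3.47 ± 0.15 (SE), adjusted p = 5.05e-08). PIP2;7 had 140.2, 136 and 189.6 CPM in expanding leaves, against 744, 773 and 849.5 CPM in emerging leaves (-2.35 ± 0.13 (SE), adjusted p = 1.99e-07), and PIP2;8 fell by 4.13. TIP1;1, of the vacuole, had 131, 178 and 185 CPM in expanding leaves, against 158, 164 and 173 CPM in emerging leaves (-0.02 ± 0.13 (SE), adjusted p = 0.91), with libraries that overlapped. PIP1;2 had a difference of 0.86, below 2-fold.

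Aliphatic glucosinolate synthesis had the highest median of all lists tested. These sulphur-rich defence compounds of the cabbage family are made from methionine by the aliphatic branch and from tryptophan by the indole branch. Of 24 aliphatic genes 22 were higher and none lower, with a median of 3.99, or 5.38 with the 3 genes that had no count in emerging leaves put at their limit. All 10 indole genes tested were higher too, with a median of 1.67. CYP79F1, which commits elongated methionine to the pathway, had 569, 447 and 384 CPM in expanding leaves, against 0.124, 0.302 and 0.0878 CPM in emerging leaves (8.63 ± 0.17 (SE), adjusted p = 1.94e-09). BCAT4, the transaminase that starts chain elongation, had 399, 340.0 and 282 CPM in expanding leaves, against 0, 0.0503 and 0.176 CPM in emerging leaves (8.30 ± 0.17 (SE), adjusted p = 1.94e-09). MAM1, the condensing enzyme of that step, had 421, 325 and 324 CPM in expanding leaves, against 1.68, 1.41 and 1.05 CPM in emerging leaves (7.23 ± 0.16 (SE), adjusted p = 2.06e-09). Emerging leaves held under 2 CPM of each gene and every expanding-leaf library over 200. IMD1, a dehydrogenase of the elongation cycle, had 415, 341 and 268 CPM in expanding leaves, against 0.870, 1.81 and 1.84 CPM in emerging leaves (7.10 ± 0.21 (SE), adjusted p = 1.10e-08), and CYP83A1, of the core pathway, rose by 6.73. IIL1, an isomerase subunit shared with leucine synthesis, had 458, 380.0 and 333 CPM in expanding leaves, against 210.4, 223 and 228 CPM in emerging leaves, below 2-fold (0.81 ± 0.11 (SE), adjusted p = 0.00014). In the indole branch CYP79B3 had 46.1, 52.4 and 31.8 CPM in expanding leaves, against 3.23, 2.01 and 11.8 CPM in emerging leaves (2.99 ± 0.46 (SE), adjusted p = 0.000267), with replicate 3 of the emerging leaves above the other two.

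Of 8 genes of glucosinolate breakdown and transport, 3 were lower and 1 higher, against 13.8% of all tested genes higher and 25.8% lower. Under median-of-ratios scaling 1 was lower and 1 higher, with TGG2 at -0.91 no longer called, and under quantile normalization 3 were lower and 2 higher. TGG2, a myrosinase that cleaves glucosinolates, had 975, 1022 and 914 CPM in expanding leaves, against 1978, 2332 and 2628 CPM in emerging leaves (-1.24 ± 0.11 (SE), adjusted p = 6.77e-06), and the specifier protein gene NSP1 fell by 1.76. The transporter gene GTR1 had 94.6, 90.9 and 86.7 CPM in expanding leaves, against 26.8, 31.5 and 38.9 CPM in emerging leaves (1.47 ± 0.14 (SE), adjusted p = 7.77e-06).

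Of 20 flavonoid and anthocyanin genes tested, 10 were lower and 1 higher (median -0.97). TT4, chalcone synthase, which starts the pathway, had 308, 369 and 277 CPM in expanding leaves, against 294, 298 and 305 CPM in emerging leaves (0.08 ± 0.10 (SE), adjusted p = 0.53) and overlapped between ages. DFR, the first enzyme committed to anthocyanin, had 15.6, 7.04 and 4.58 CPM in expanding leaves, against 171, 151 and 126 CPM in emerging leaves (-4.04 ± 0.33 (SE), adjusted p = 3.11e-06). LDOX, the next enzyme, had 16.3, 4.82 and 7.41 CPM in expanding leaves, against 126, 103 and 82.3 CPM in emerging leaves (-3.45 ± 0.34 (SE), adjusted p = 1.23e-05). TT19, a transferase needed to store anthocyanin, had 14.4, 7.78 and 1.89 CPM in expanding leaves, against 61.2, 54.7 and 49.9 CPM in emerging leaves (-2.94 ± 0.48 (SE), adjusted p = 0.000421). These 3 genes were lower in each expanding-leaf library, and replicate 1 of the expanding leaves was the highest of its age for all 3. MYBL2, a repressor of anthocyanin genes, was the member that rose, at 110.4, 114 and 104 CPM in expanding leaves, against 37.8, 33.2 and 33.9 CPM in emerging leaves (1.62 ± 0.10 (SE), adjusted p = 4.34e-07). In the phenylpropanoid and lignin list 5 of 15 were higher and 1 lower: HCT rose by 1.802, and PAL4 fell by 2.34.

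Of 17 polyamine genes 3 were lower and 1 higher, where 25.8% of all tested genes were lower and 13.8% higher. Under median-of-ratios scaling 5 were higher and 3 lower, and under quantile normalization 4 were higher and 3 lower. ADC2, arginine decarboxylase, had 27.4, 35.2 and 25.5 CPM in expanding leaves, against 76.7, 94.8 and 92.8 CPM in emerging leaves (-1.56 ± 0.14 (SE), adjusted p = 7.31e-06). AT3G25570, annotated as a decarboxylase of S-adenosylmethionine, had 12.5, 9.44 and 8.49 CPM in expanding leaves, against 0.435, 1.11 and 0.702 CPM in emerging leaves (2.67 ± 0.27 (SE), adjusted p = 1.37e-05). The list median was -0.04 and its sign depended on the scaling.

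**Figure D4:**
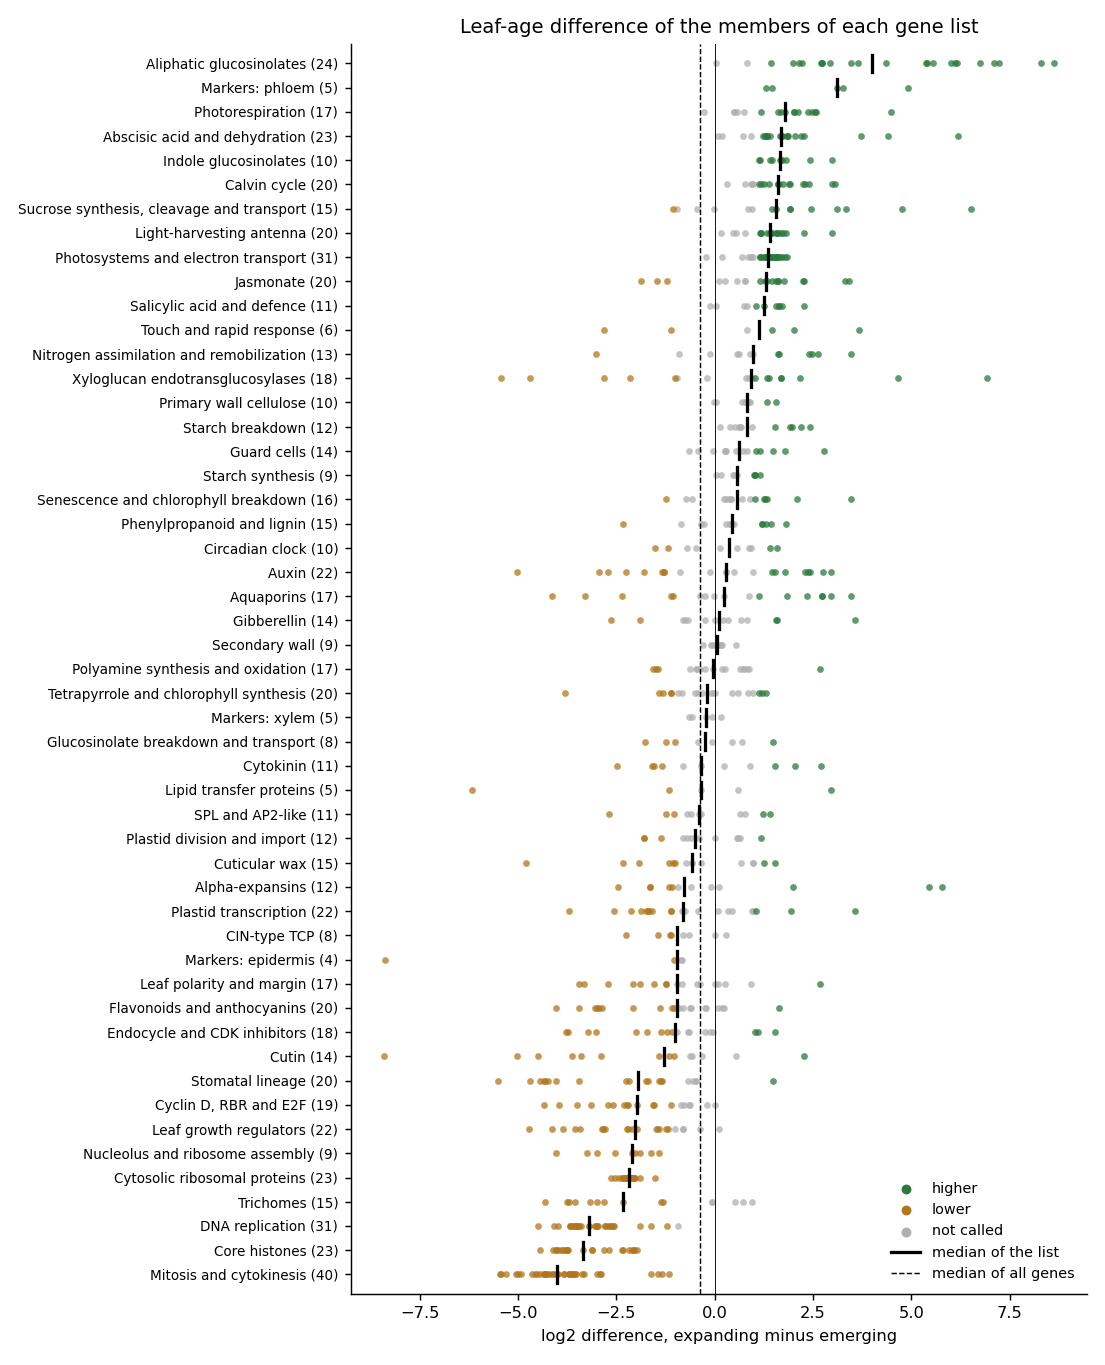
Log2 difference, expanding minus emerging leaves, of every tested member of each gene list, ordered by the list's median (short bar); the number tested is in parentheses and the dashed line is the median of all genes. Aliphatic glucosinolates lie at the top with a median of 3.99 and mitosis at the bottom with -4.002.

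Genes of abscisic acid and dehydration, the hormone and the proteins of water shortage, were higher in 19 of 23 cases and lower in none (median 1.67), although the plants of both ages were well-watered. NCED3, which makes the precursor of the hormone, had 25.1, 30.001 and 28.7 CPM in expanding leaves, against 0.124, 0.654 and 0.351 CPM in emerging leaves (4.41 ± 0.24 (SE), adjusted p = 2.30e-07). GOLS2, which starts raffinose synthesis, had 86.0, 105 and 64.0 CPM in expanding leaves, against 0.124, 0.302 and 0.0878 CPM in emerging leaves (6.18 ± 0.23 (SE), adjusted p = 2.83e-08). COR15A, a chloroplast protein of cold and drought, had 572, 561 and 450.1 CPM in expanding leaves, against 37.9, 35.4 and 44.0 CPM in emerging leaves (3.72 ± 0.12 (SE), adjusted p = 1.27e-08). All 3 were higher in every expanding-leaf library. HAB1, a phosphatase that restrains the hormone's signal, had 24.9, 33.3 and 25.3 CPM in expanding leaves, against 23.5, 25.7 and 23.6 CPM in emerging leaves (0.18 ± 0.15 (SE), adjusted p = 0.3), and its libraries overlapped.

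Jasmonate genes, of wound and insect defence, were higher in 12 of 20 cases and lower in 3. AOS, an enzyme of its synthesis, had 200.4, 239 and 195 CPM in expanding leaves, against 14.96, 15.7 and 35.4 CPM in emerging leaves (3.31 ± 0.27 (SE), adjusted p = 3.39e-06). AOC2, which acts next, had 199.6, 246 and 177 CPM in expanding leaves, against 12.2, 13.2 and 38.9 CPM in emerging leaves (3.402 ± 0.36 (SE), adjusted p = 1.94e-05). In emerging leaves replicate 3 was the highest for both, and for the repressor gene JAZ9 it lay far above the other two, at 182, 248 and 180.2 CPM in expanding leaves, against 28.1, 27.0 and 96.6 CPM in emerging leaves (2.23 ± 0.40 (SE), adjusted p = 0.000788). The storage protein genes VSP2 and VSP1 moved in opposite directions, with differences of 1.55 and -1.46. Of 11 salicylic acid and defence genes 7 were higher and none lower, among them SARD1 (2.27 ± 0.26 (SE), adjusted p = 3.57e-05) and WRKY70 (1.56 ± 0.18 (SE), adjusted p = 3.67e-05). PR1, a late marker of that defence, was listed at 0 in 5 of the 6 libraries and was not tested.

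Senescence genes were higher in 6 of 16 cases and lower in 1, which was not called under either other scaling. NAP, a NAC factor of leaf ageing, had 8.87, 17.96 and 17.0 CPM in expanding leaves, against 2.55, 4.17 and 1.32 CPM in emerging leaves (2.102 ± 0.36 (SE), adjusted p = 0.000524), and ASN1, asparagine synthetase, had 30.6, 43.0 and 41.1 CPM in expanding leaves, against 1.304, 3.57 and 3.07 CPM in emerging leaves (3.47 ± 0.28 (SE), adjusted p = 3.10e-06). SAG12, a protease gene of late senescence, was listed at 0 in all 6 libraries.

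Auxin genes were split, 8 higher and 8 lower of 22. For this and the next 2 hormones the shares over all tested genes were 13.8% higher and 25.8% lower. GH3.3, which conjugates auxin, had 0.257, 1.48 and 0.809 CPM in expanding leaves, against 53.5, 60.8 and 58.4 CPM in emerging leaves (-5.04 ± 0.26 (SE), adjusted p = 1.62e-07). MP, an auxin response factor that guides vein formation, had 17.99, 15.4 and 20.6 CPM in expanding leaves, against 117, 128 and 122 CPM in emerging leaves (-2.71 ± 0.12 (SE), adjusted p = 7.55e-08), while ARF2 had a difference of 0.29, below 2-fold. IAA3, a repressor protein of the response, was higher, at 116, 86.9 and 74.1 CPM in expanding leaves, against 12.7, 9.90 and 10.3 CPM in emerging leaves (2.95 ± 0.18 (SE), adjusted p = 4.10e-07). Of 11 cytokinin genes 3 were higher and 4 lower. The response regulators ARR5 and ARR15 had differences of 2.71 and -1.59. Of 14 gibberellin genes 3 were higher and 2 lower, with GA2OX1, which inactivates the hormone, at 3.57 and GASA4, a responsive gene, at -2.64. The cytokinin median was -0.35, or 0.20 under quantile normalization. The gibberellin median was 0.11, or -0.26 among genes with a mean of at least 10 CPM.

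Clock genes were higher in 2 and lower in 2 of 10 cases, or 4 and 1 under both other scalings. The other 6 were not called, and of all tested genes 13.8% were higher and 25.8% lower. The morning gene CCA1 had 85.1, 99.6 and 88.9 CPM in expanding leaves, against 23.8, 33.6 and 32.2 CPM in emerging leaves (1.59 ± 0.14 (SE), adjusted p = 5.89e-06) and PRR9 rose by 1.404. The evening gene TOC1 had 11.3, 6.48 and 5.12 CPM in expanding leaves, against 23.5, 21.0 and 23.7 CPM in emerging leaves (-1.52 ± 0.25 (SE), adjusted p = 0.000476). CCA1 and PRR9 were higher and TOC1 lower in each expanding-leaf library, and the part of harvest time was not tested. Of 6 genes that respond quickly to touch, 3 were higher and 2 lower. TCH3 had 43.7, 36.1 and 18.2 CPM in expanding leaves, against 1.55, 1.61 and 1.32 CPM in emerging leaves (3.67 ± 0.31 (SE), adjusted p = 4.14e-06), whereas TCH2 had 18.9, 7.41 and 4.58 CPM in expanding leaves, against 20.6, 21.0 and 19.0 CPM in emerging leaves (-1.12 ± 0.38 (SE), adjusted p = 0.0264), with replicate 1 of the expanding leaves well above the other two. TCH2 lost its call in most of the alternative settings. Its adjusted p was 0.0788 under median-of-ratios scaling, 0.0781 under quantile normalization and between 0.0632 and 0.0863 (limma) without any one library other than replicate 1 of the expanding leaves.

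The same leaf-age difference was available in Col-0 under water deficit and in well-watered gtl1-4, which share no library with the comparison above. Calls in these 2 sets came from a fit of all 24 libraries, with a shared spread and a filter over all groups. Those of well-watered Col-0 came from its 6 libraries alone, so the overlaps compare unlike fits. In Col-0 under deficit 10.3% of 18882 genes were higher and 23.3% lower, and in gtl1-4 11.6% were higher and 25.5% lower. Of the 2513 genes higher in well-watered Col-0, 1663 were also higher under deficit, which is 66.2% of the first list and 85.4% of the second. For the 4718 lower genes the shared number was 3513, 74.5 and 79.7% of the lists. In gtl1-4 the shared numbers were 1967 higher genes, 78.3 and 89.6% of the lists, and 3947 lower genes, 83.7 and 81.8%. The median of the mitosis list was -4.002 in well-watered Col-0, -3.90 under deficit and -3.72 in gtl1-4. For antenna genes these medians were 1.41, 1.20 and 1.73, and for aliphatic glucosinolate genes 3.99, 3.13 and 3.79.

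The difference of the leaf-age differences was tested in a fit of all 24 libraries. The leaf-age difference depended on water supply for 874 of 18882 genes (4.63%) by limma at an adjusted p under 0.05. Of these, 272 were more positive and 602 more negative under deficit. This split rests on the scaling: under median-of-ratios scaling 427 of 937 were more positive. Without replicate 1 of well-watered expanding Col-0 leaves the number was 400 of 878. The leaf-age difference depended on genotype for 43 genes (0.228%), and 2000 passed at an unadjusted p under 0.05. With array weights, which weight libraries by their spread, the number was 125. Between pairs of replicates, the chi-square per gene against sampling noise was 28.9 to 169 in well-watered emerging gtl1-4 leaves. In well-watered emerging Col-0 leaves it was 6.92 to 9.47. The part of this spread in the count for genotype was not tested. Of the 798 list genes tested, 87 passed for water, 66 of them more negative under deficit, and 3 for genotype. Directions of list genes, here and below, were counted only with the scaling used here. The count for water fell to 499 to 578 without any one of 6 libraries, which were all 3 of well-watered emerging leaves, replicate 2 of expanding leaves under deficit and replicates 1 and 2 of emerging leaves under deficit. That for genotype fell to 26 to 28 without any one of 5, all 3 of well-watered emerging Col-0 leaves and replicates 2 and 3 of emerging gtl1-4 leaves.

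**Figure D5:**
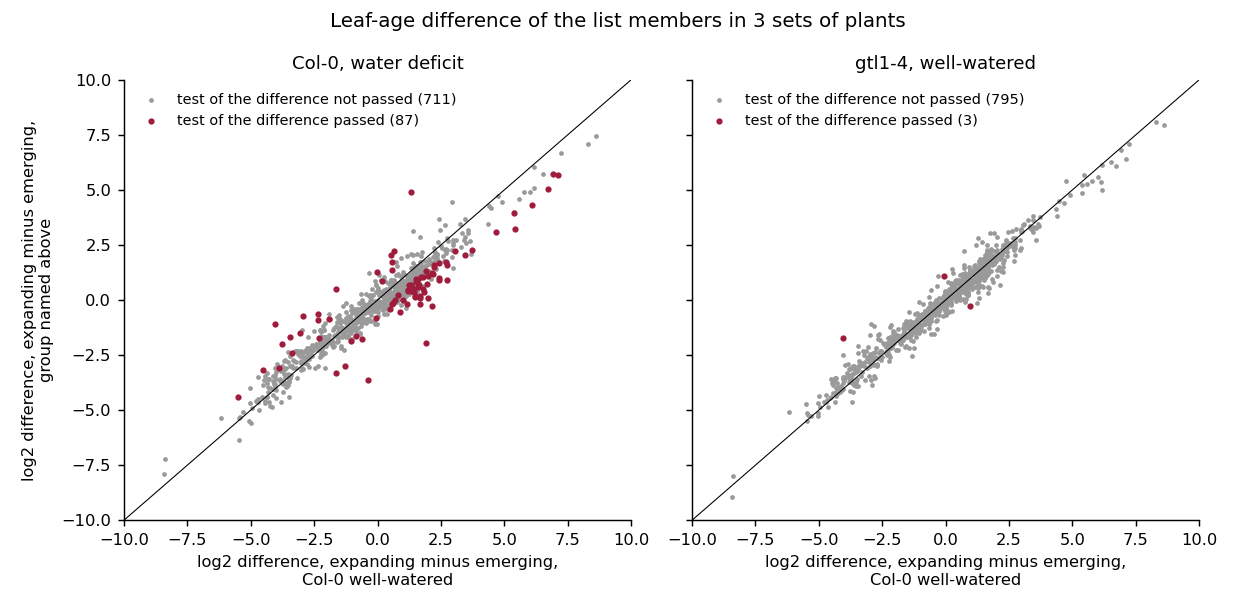
Log2 difference, expanding minus emerging leaves, of 798 list genes in well-watered Col-0 (horizontal axis) against the same difference in Col-0 under water deficit (left) and in well-watered gtl1-4 (right); the line marks equal values. Red points passed the test of the difference between the sets of plants, 87 for water supply and 3 for genotype.

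Genes whose leaf-age difference depended on water supply came from several lists. Starch breakdown had 7 of 12 members, aliphatic glucosinolates 8 of 24, indole glucosinolates 5 of 10 and the xyloglucan enzymes 6 of 18, all with a more negative difference under deficit. Alpha-expansins had 5 of 12, 4 of them more negative, and none of the 31 replication or 40 mitosis genes passed. BAM5 had 3.16, 3.37 and 9.57 CPM in expanding leaves under deficit and 21.5, 21.5 and 21.7 CPM in emerging leaves under deficit, so its difference was -1.97 there and 1.91 in well-watered plants (change -3.88 ± 0.44 (SE), adjusted p = 7.47e-06). Its expanding-leaf libraries thus lay below the emerging-leaf libraries under deficit and above them in well-watered plants. EXPA1 had 122, 202 and 167 CPM in expanding leaves under deficit and 147, 168 and 132 CPM in emerging leaves under deficit (change -1.87 ± 0.20 (SE), adjusted p = 3.52e-06). FSD1 had 603, 549.6 and 695 CPM in expanding leaves under deficit and 85.8, 74.0 and 37.8 CPM in emerging leaves under deficit (change -4.26 ± 0.46 (SE), adjusted p = 5.10e-06).

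Of the 20 flavonoid and anthocyanin genes, 4 passed (DFR, LDOX, 5MAT and TT19), and all 4 were less negative under deficit. DFR had 317, 135 and 221 CPM in expanding leaves under deficit and 472, 500.1 and 377 CPM in emerging leaves under deficit, a difference of -1.07 against -4.04 in well-watered plants (change 2.97 ± 0.38 (SE), adjusted p = 5.35e-05). In well-watered gtl1-4 it had 46.9, 51.7 and 56.5 CPM in expanding leaves and 171, 159 and 189 CPM in emerging leaves (change 2.32 ± 0.38 (SE), adjusted p = 0.00298). Every DFR value in expanding leaves of these other groups thus lay above those of well-watered Col-0, while emerging gtl1-4 leaves overlapped with emerging Col-0 leaves. For GTL1 itself the leaf-age difference was 0.64 under deficit, a change of -0.30 ± 0.23 (SE) that did not pass (adjusted p = 0.47).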

How the data were processed

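RNA was measured by Illumina mRNA sequencing of pooled leaves. Per the submitters' processing notes, the tools included RSEM, STAR, Trim Galore, Trimmomatic, FastQC and bcl2fastq, without versions, and the build was TAIR10. The deposited values are a signal, which by its steps is estimated counts divided by 1 size factor per library, separately for each leaf age; how these factors were set was not given in the sources used here. Below 2000 reads, each library held multiples of 0.01 of 1 read only, and 96.5 to 97.9% of these values were whole within 0.002, so rescaling each library to its own nuclear total removes that factor. Organelle genes were dropped, libraries were rescaled to 1000000 (CPM), and log2(value + 1) of the 18258 genes that averaged 1 CPM or more at either leaf age was tested with limma 3.58.1 in R 4.3.3 (empirical Bayes with a variance trend, Benjamini-Hochberg adjustment). Differences between leaf-age differences, and the leaf-age calls in Col-0 under deficit and in gtl1-4, came from a fit of all 8 groups. The main fits treat the leaf ages as unpaired. Promoters and names came from RefSeq on TAIR10.1. The genes named are the 10 largest called rises and falls with a mean of at least 20 CPM, up to 5 called members of each list with the largest differences, up to 3 that moved against the majority, up to 2 uncalled members with the highest mean, and genes of known roles in leaf development such as GTL1, SPCH and DFR. Members and lists were chosen with earlier results of these data known. Replicates are biological by label, each a pool of 10 plants. Alternatives were other pseudocounts, filters, scalings and variance settings, a replicate block and leaving out each library.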

Additional observations from a re-analysis of the deposited data

Results flagged for a closer look

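Of 195 genes examined one by one, 28 had a leaf-age difference that changed with water supply in Col-0 and 2 had one that changed with genotype, by limma's test of the difference itself at an adjusted p under 0.05. Values below are the change of the log2 difference, water deficit minus well-watered. It was negative for the leading rises FSD1 (-4.26), IMD1 (-1.40), AT2G25450 (-1.33) and XTH31 (-1.20) and for the stomatal gene MYB88 (-1.29). The change was negative as well for the photosynthesis and chlorophyll genes CA1 (-0.85), PRK (-0.66) and HEMA1 (-0.74), and for GWD1 (-0.74) and BAM5 (-3.88) of the starch breakdown list. It was also negative for the wall genes EXPA1 (-1.87), EXPA8 (-2.24), XTH7 (-1.55), CESA2 (-0.65), COB (-0.66) and HCT (-0.75), and for CYP83A1 (-1.69), ABCG12 (-0.59), COR15A (-1.44) and ATML1 (-0.80). It was positive for TMM (1.13), TTG2 (1.78), PAL4 (1.71), DFR (2.97), LDOX (1.79), TT19 (2.201), CER1 (1.05) and HAB1 (0.70).

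For genotype, well-watered gtl1-4 minus well-watered Col-0, the leaf-age difference of AT5G33370 changed by -1.78 and that of DFR by 2.32. AT5G33370 was listed at 0 in expanding leaves of well-watered Col-0 and gtl1-4 alike, so its change is one of emerging-leaf values, 268 to 453 CPM in gtl1-4 and 83.6 to 106.6 CPM in Col-0.

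Chloroplast transcripts, which the comparisons leave out, held on average 69.7% of all counts in expanding leaves, above their share in every emerging-leaf library. The labels name an mRNA library kit, and the part of library preparation in this share was not tested.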

How the results depend on the processing

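Keeping organelle genes in the total left 695 genes higher and 12256 lower, and a pseudocount of 5 left 1713 higher and 2955 lower. Other scalings and filters, and variance settings, kept both counts within 1.5 times of the main ones. Leaving out each library in turn gave 2435 to 2625 higher and 4536 to 5032 lower genes, 499 to 1182 genes that changed with water supply, 26 to 63 that changed with genotype, and 25 to 27 lists with a positive median, against 26 of 52. For genotype, a pseudocount of 5 gave 76 genes and array weights gave 125. The cause of these shifts was not tested.

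Deviations from the group means correlated weakly between leaf ages for libraries of the same replicate number (0.117, 0.0545 and -0.0111). For libraries of different numbers the correlations were -0.147 to 0.104. These values cannot show whether libraries of the same number share plants or a harvest. With the number as a replicate block, 2532 genes were higher and 4755 lower, 808 changed with water supply and 38 with genotype. A paired reading is not made.

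None of the 168 called genes examined one by one reversed under any of 16 settings, which do not include keeping organelle genes in the total. The 12 that lost their call in at least one were SIM, KRP1, KRP6, RBCS2B, PSBQ-2, CRD1, GLK1, STP1, TGG2, LTP1, TCH2 and ATML1. Quantile normalization put RBCS2B at 0.97, PSBQ-2 at 0.74 and CRD1 at 0.23, and median-of-ratios scaling put SIM at -0.95, TGG2 at -0.91, LTP1 at -0.83 and ATML1 at -0.72. Uncalled genes near 0 changed sign. Under median-of-ratios scaling CDKA;1 was at 0.14, CCS52A1 at 0.28, ZFP8 at 0.24, PORB at 0.28, TIP1;1 at 0.31 and XCP2 at 0.086. Under quantile normalization CCS52A1 was at 0.32, ZFP8 at 0.19, LHCB1.1 at -0.61 (adjusted p = 0.00148, limma), TIP1;1 at 0.14 and XCP2 at 0.17, and with array weights ZFP8 was at 0.0063. Leaving out single libraries gave -0.30 to 0.16 for CCS52A1, -0.22 to 0.053 for ZFP8, -0.11 to 0.015 for PORB, -0.012 to 0.067 for ADG1, -0.11 to 0.14 for TIP1;1 and -0.035 to 0.17 for TT4. Medians of 10 lists changed sign in at least one setting. Among list counts, lower CIN-type TCP genes numbered 4, or 2 under both scalings, and lower alpha-expansins 5, or 3 under median-of-ratios scaling. Depth of nuclear genes is lowest in expanding leaves, where a group total of 3 counts is 0.146 CPM.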
